A study of Mus musculus with 6 samples.

Results

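The nuclear genes for respiratory complexes II, III, IV and V were followed in the tibialis anterior, a fast muscle of the mouse shin, from adult mice. The set held 50 of the 54393 genes in the expression table, chosen by name among the protein-coding genes of GENCODE M21: 4 subunit genes of complex II, 10 of complex III with cytochrome c, 18 of complex IV and 18 of complex V. RNA sequencing covered 3 muscles labelled WT, whose sample names refer to C57 mice, and 3 muscles labelled Dock3 KO, in which Dock3, an activator of the small GTPase Rac, is knocked out. The samples are called WT replicates 1, 3 and 4 and Dock3 KO replicates 1, 2 and 3, as in the sample names, and values of a gene are given in that order. The labels give neither the knockout allele, nor the sex, nor a more exact age, and they state no treatment. They do not say that the 3 muscles of a genotype came from 3 animals, so p-values measure only the spread between these samples.

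These complexes sit in the inner mitochondrial membrane. Complex II passes electrons from succinate to ubiquinone, complex III passes them on to cytochrome c, complex IV reduces oxygen with them, and complex V uses the proton gradient built by the chain to make ATP. All subunits of complex II and most subunits of the other complexes are encoded in the nucleus. Mitochondrial DNA encodes cytochrome b of complex III, the catalytic core of complex IV and part of the proton channel of complex V. Several complex IV subunits have a heart and muscle isoform and a widely expressed isoform, encoded by separate genes, and subunit c of complex V is encoded by 3 genes.

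None of the 46 subunit genes that could be tested passed the threshold between genotypes, an adjusted p of 0.05 with limma (Benjamini-Hochberg over all genes tested). Across all genes tested, 165 of 16031 passed, or 1.03%. At an unadjusted p under 0.05 there were 3 members, namely Atp5g3, Atp5e and Uqcrfs1, and 1685 genes of the whole table, or 10.5%. The smallest adjusted p among the members was 0.159. The intervals set limits on what these samples allow: the 95% interval of the log2 difference lay within a 1.5-fold change in either direction for 35 of the 46 members and within a 2-fold change for 44, the exceptions being Cox4i2 and Atp5g2. The median log2 difference, Dock3 KO minus WT on the log2(normalized count + 1) scale, was 0.09 over the members and -0.01 over all genes tested. It lay above 0 for 37 of 46 members (80.4%) and for 49.0% of all genes, but 1 muscle weighed heavily here: without Dock3 KO replicate 1 the count was 24 and the median 0.02, and without WT replicate 1 they were 27 and 0.03. With all samples rescaled to the same total, 3 members lay above 0, and 37 lay above the median of all genes, which itself moved to -0.28. In bulk muscle, less RNA per cell and fewer cells of a type cannot be told apart.

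The sequences of 2 subunits are shown first, because they decide how the values of Atp5g2 and Cycs can be read. Subunit c forms the rotating ring of complex V, and its 3 genes, Atp5g1, Atp5g2 and Atp5g3, are known to encode the same mature protein behind different targeting peptides. The last 100 coding bases before the stop codon, on GRCm38 and the minus strand, are given for the 3 genes and for Gm10175, which GENCODE M21 lists as a transcribed processed pseudogene. They lie at chr15:102663017-102663116 (Atp5g2), chr7:23946795-23946894 (Gm10175), chr11:96073107-96073206 (Atp5g1) and chr2:73908596-73908695 (Atp5g3), and capitals mark bases that differ from Atp5g2.
Atp5g2: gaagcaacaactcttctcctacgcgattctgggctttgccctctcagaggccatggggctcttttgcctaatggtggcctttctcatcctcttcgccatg
Gm10175: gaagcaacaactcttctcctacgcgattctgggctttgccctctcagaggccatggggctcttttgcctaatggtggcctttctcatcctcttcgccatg
Atp5g1: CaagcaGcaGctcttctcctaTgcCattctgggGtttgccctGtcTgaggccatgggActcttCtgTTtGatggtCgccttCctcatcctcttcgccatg
Atp5g3: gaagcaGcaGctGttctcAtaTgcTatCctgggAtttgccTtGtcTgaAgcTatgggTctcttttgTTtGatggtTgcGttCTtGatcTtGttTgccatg
Atp5g1 differed from Atp5g2 at 15 of these 100 bases and Atp5g3 at 25, while Gm10175 did not differ. Over the coding bases of the mature protein the identity was 84.9% between Atp5g1 and Atp5g2, 80.0% between Atp5g1 and Atp5g3, and 78.7% between Atp5g2 and Atp5g3. Where their transcripts align, over 645 bases, Atp5g2 and Gm10175 are 100% identical, so reads from that stretch cannot be told apart.

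Cytochrome c, the small carrier between complexes III and IV, is encoded by Cycs. A stretch of 60 coding bases is given for Cycs at chr6:50565243-50565302 on the minus strand and for Gm10053, which the annotation lists as protein-coding, at chr19:24876005-24876064 on the plus strand.
Cycs: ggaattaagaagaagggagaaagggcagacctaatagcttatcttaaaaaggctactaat
Gm10053: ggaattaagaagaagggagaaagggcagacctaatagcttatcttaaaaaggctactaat
The coding sequences of both entries, 315 bases long, had 0 differences. Among all 50 members, 16 had such near-identical transcripts elsewhere in the genome, 36 in all.

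The data behind these values were as follows. The 6 libraries held approximately 21700000 to 32400000 reads each, with Dock3 KO replicates 1 and 2 the shallowest, and 23860 to 25185 genes per sample were listed above 0. Dock3 itself had 169, 161 and 118 normalized counts in the WT muscles against 22.4, 1.78 and 1.54 in the knockouts, and passed the threshold (limma log2 difference -4.76, adjusted p = 0.0140). Dock3 KO replicate 1 kept more Dock3 signal than the other two. A pair of transcripts, Gm42418 and Lars2, took 17.9% and 20.3% of all normalized counts in Dock3 KO replicates 1 and 2, against 3.00% to 3.64% in the other 4 samples. The summed level of 8 muscle fibre markers lay between 1288000 and 1391000 normalized counts in WT and between 1298000 and 1452000 in Dock3 KO. Among these 8 markers, 6 had a log2 difference above 0 and 2 below, and none passed the threshold. The differences ran from -0.17 for Acta1 to 0.55 for Myh2. For Mb, with 0.45, every Dock3 KO value lay above every WT value. Markers of slow fibres summed to 1172 to 1194 in WT and 918 to 1966 in Dock3 KO. The most abundant of them, Atp2a2, averaged 730 in WT and 936 in Dock3 KO. Of these 7 slow fibre markers, 3 had a log2 difference above 0 and 4 below. Their median was -0.02, and none passed the threshold. The part of fibre type in the members' values was not tested. Of other cell types, 4 fibroblast markers summed to 26590 to 27650 in WT and 29840 to 35370 in Dock3 KO, and 2 of the 4, Col1a1 and Col3a1, passed the threshold with higher values in Dock3 KO. Of the other two, Dcn, the most abundant of the 4 in WT, had a log2 difference of -0.28 and Pdgfra 0.15. The part of these cells in the members' values was not tested. The sums of the adipocyte, heart, macrophage, endothelial, Schwann cell and brown adipocyte markers overlapped between genotypes, and Ucp1, the defining gene of brown fat, was listed at 0 in all 6 samples. Most of the adipocyte sum was Fabp4, at a mean of 2496 in WT and 2353 in Dock3 KO. Of the 7 adipocyte markers, 5 had a log2 difference above 0 and 2 below, from -0.11 to 2.26. Their median was 0.70, and none passed the threshold. What part fat cells have in the members' values was not tested.

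**Figure D1:**
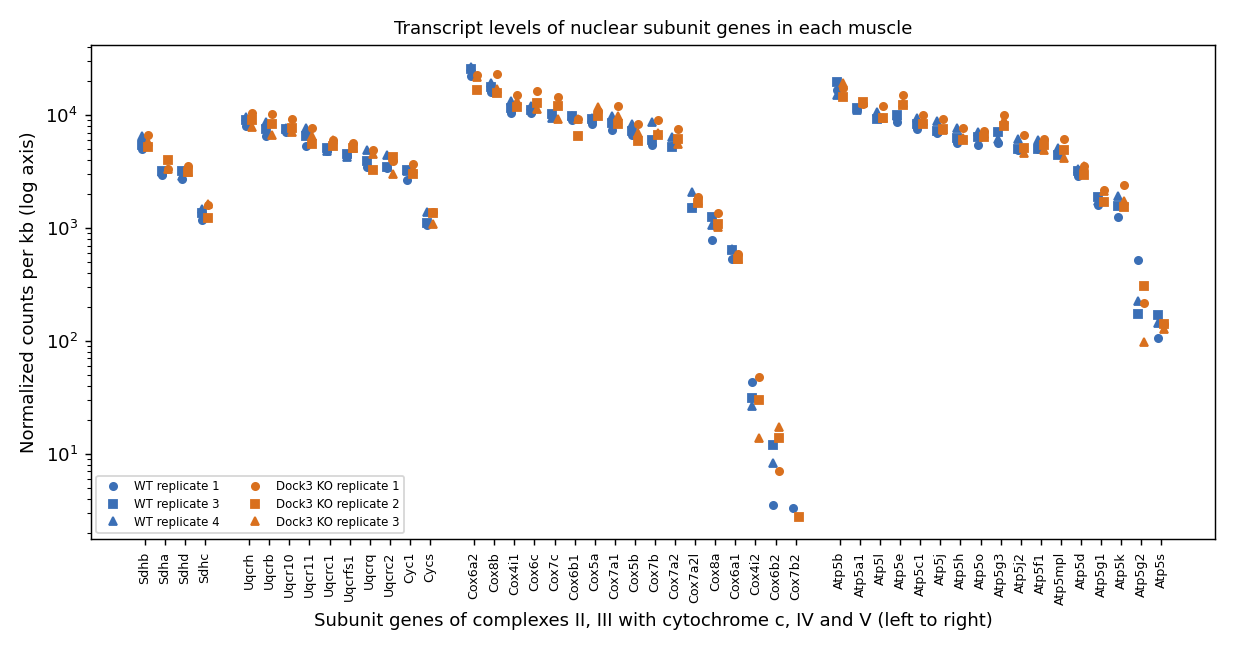
Levels of the subunit genes in each muscle, as normalized counts per kb of transcript on a log axis, ordered by WT mean within complexes II, III with cytochrome c, IV and V (left to right). Circles, squares and triangles are the 3 muscles of each genotype. Values of 0 (Cox8c in all samples, Cox7b2 in 4) are not drawn, nor is a second entry named Atp5o, with a WT mean of 11.7. Cox6a2 lies highest, and the isoform genes Cox4i2, Cox6b2 and Cox7b2 lie far below the rest of the genes drawn.

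Levels between genes were compared as normalized counts per kb of transcript, with SD over n = 3 muscles. The highest level belonged to Cox6a2, the heart and muscle isoform of a regulatory complex IV subunit, at 24930 ± 2196 in WT and 20450 ± 3112 in Dock3 KO. Cox8b, the muscle isoform of a small complex IV subunit, followed at 17750 ± 1685 in WT, and Atp5b, the catalytic beta subunit of complex V, at 17150 ± 2213. These last 2 levels differed by less than the spread between WT muscles. Uqcrh, the hinge protein of complex III, had the highest level of that complex at 8929 ± 815, and Sdhb, the iron-sulfur subunit, the highest of complex II at 5665 ± 790. The order depends on the transcript length used: with the median length of a gene's coding transcripts, an alternative added after seeing the data, Uqcrc1 stood at 15260 in WT and Uqcrq at 12410, both above Uqcrh at 10290. Summed over each complex, complex IV made up 42.5% ± 0.472 of the per-kb total of the 4 complexes in WT and 41.3% ± 1.25 in Dock3 KO, and complex V 35.7% ± 0.747 and 36.8% ± 0.859. Complex III made up 17.5% in both genotypes (SD 0.288 in WT, 0.756 in Dock3 KO) and complex II 4.39% ± 0.0196 in WT and 4.48% ± 0.254 in Dock3 KO. The ranges of the 2 genotypes overlapped for all 4 complexes. These shares also depend on the transcript length used, and their SD covers only the spread between muscles. Signal listed for copies is left out of them: in WT, Atp5g2 stood at 306 per kb alone and at 4441 with its copy.

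As a share of all normalized counts, the members made up 1.06%, 1.24% and 1.14% in WT replicates 1, 3 and 4 and 1.01%, 0.861% and 1.201% in Dock3 KO replicates 1, 2 and 3. The 2 lowest shares belonged to the libraries with the high Gm42418 and Lars2 share. With those 2 transcripts taken out of the total, the share was 1.185% ± 0.0926 in WT, and it was 1.185% ± 0.0917 in the knockouts (SD over n = 3 muscles).

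Complex II holds the catalytic flavoprotein Sdha, the iron-sulfur protein Sdhb and the membrane anchors Sdhc and Sdhd. All 4 had positive log2 differences, from 0.06 for Sdhb to 0.19 for Sdha, with a median of 0.16 and none past the threshold (adjusted p 0.686 to 0.944, limma). Sdha (chr13:74322254-74350280, minus strand) stood at 8638, 9358 and 9113 normalized counts in WT and 9606, 11750 and 9727 in Dock3 KO. The groups did not overlap, and Dock3 KO replicate 2 stood well above the other two. The log2 difference was 0.19 (95% interval -0.10 to 0.48). Sdhb stood at 5738, 6192 and 7478 in WT and 7642, 5977 and 6563 in Dock3 KO, so its groups overlapped, with WT replicate 1 lowest and Dock3 KO replicate 1 highest. Without Dock3 KO replicate 1 the log2 difference of Sdhb was -0.04, and with quantile normalization -0.03. All 4 intervals of complex II lay within a 1.5-fold change.

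In complex III with cytochrome c, 9 of 10 genes lay above 0, the log2 differences ran from -0.01 to 0.28 with a median of 0.10, and all 10 intervals lay within a 1.5-fold change. Uqcrfs1, the Rieske iron-sulfur protein at the point where ubiquinol is oxidized, had the largest difference. It is at chr13:30540308-30545362 on the minus strand and stood at 5904, 6216 and 5793 normalized counts in WT and 7798, 7020 and 6923 in Dock3 KO. The groups did not overlap, with a difference of 0.28 (95% interval 0.02 to 0.54, adjusted p = 0.442 with limma). Uqcrc2, a core protein of the complex, lay at the other end with 6435, 6636 and 8360 in WT and 7510, 8124 and 5772 in Dock3 KO. Its log2 difference was -0.01 (95% interval -0.37 to 0.36), and WT replicate 4 held the highest value. Uqcrh stood at 4407, 4957 and 5289 in WT and 5730, 4925 and 4337 in Dock3 KO, with overlapping groups.

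Cytochrome c shares its signal with copies. Cycs alone stood at 3300, 3433 and 4327 normalized counts in WT and 4311, 4208 and 3394 in Dock3 KO, and these were 45.3% to 49.6% of the sum with its copies, chiefly Gm10053. The sums were 7136, 7573 and 8728 in WT and 9393, 8803 and 7425 in Dock3 KO. The log2 difference was 0.11 for Cycs alone and 0.13 for the sum (95% interval -0.19 to 0.44), so both ways of counting gave overlapping groups and no call.

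Complex IV had the most mixed signs. Of 15 tested genes, 10 lay above 0 and 5 below, with a median of 0.17, and 8 of the 15 intervals lay within a 1.5-fold change. Cox6b2, Cox7b2 and Cox8c did not reach the minimum mean of 10 normalized counts: Cox6b2 lay between 2.06 and 10.2, Cox7b2 was listed at 0 in 4 samples with 1.79 and 1.505 (WT replicate 1 and Dock3 KO replicate 2), and Cox8c was listed at 0 in all 6.

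Cox7c, a small accessory subunit, had the largest difference upward in complex IV, with 5357, 5494 and 5071 normalized counts in WT and 7883, 6496 and 5051 in Dock3 KO. Dock3 KO replicate 3 lay below all WT values, so the groups overlapped. The log2 difference was 0.26 (95% interval -0.10 to 0.63), and it was -0.10 with log2 Gm42418 as a covariate. Dock3 KO replicate 3 alone against the 3 WT muscles gave -0.07, a value from a single knockout muscle. Cox7c held 78.7% of the sum with its copies over the 6 samples, most of the rest being Gm12338, and the difference of the sum was 0.20.

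Cox6a2 (chr7:128205435-128206387, minus strand) had the largest difference downward. It stood at 15280, 17430 and 18150 normalized counts in WT and 15340, 11480 and 14900 in Dock3 KO, with WT replicate 1 inside the Dock3 KO range. The log2 difference was -0.29 (95% interval -0.64 to 0.05, adjusted p = 0.562 with limma), and without Dock3 KO replicate 2, the lowest sample, it was -0.16. Cox4i2, a low-level isoform, came next at -0.27, and then Cox6b1, a subunit facing the intermembrane space, with 5612, 6130 and 6069 in WT and 5740, 4016 and 5693 in Dock3 KO, a difference of -0.22. Here too Dock3 KO replicate 2 was the lowest, and the other two lay within the WT range. Without Dock3 KO replicate 2 the difference of Cox6b1 was -0.05.

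**Figure D2:**
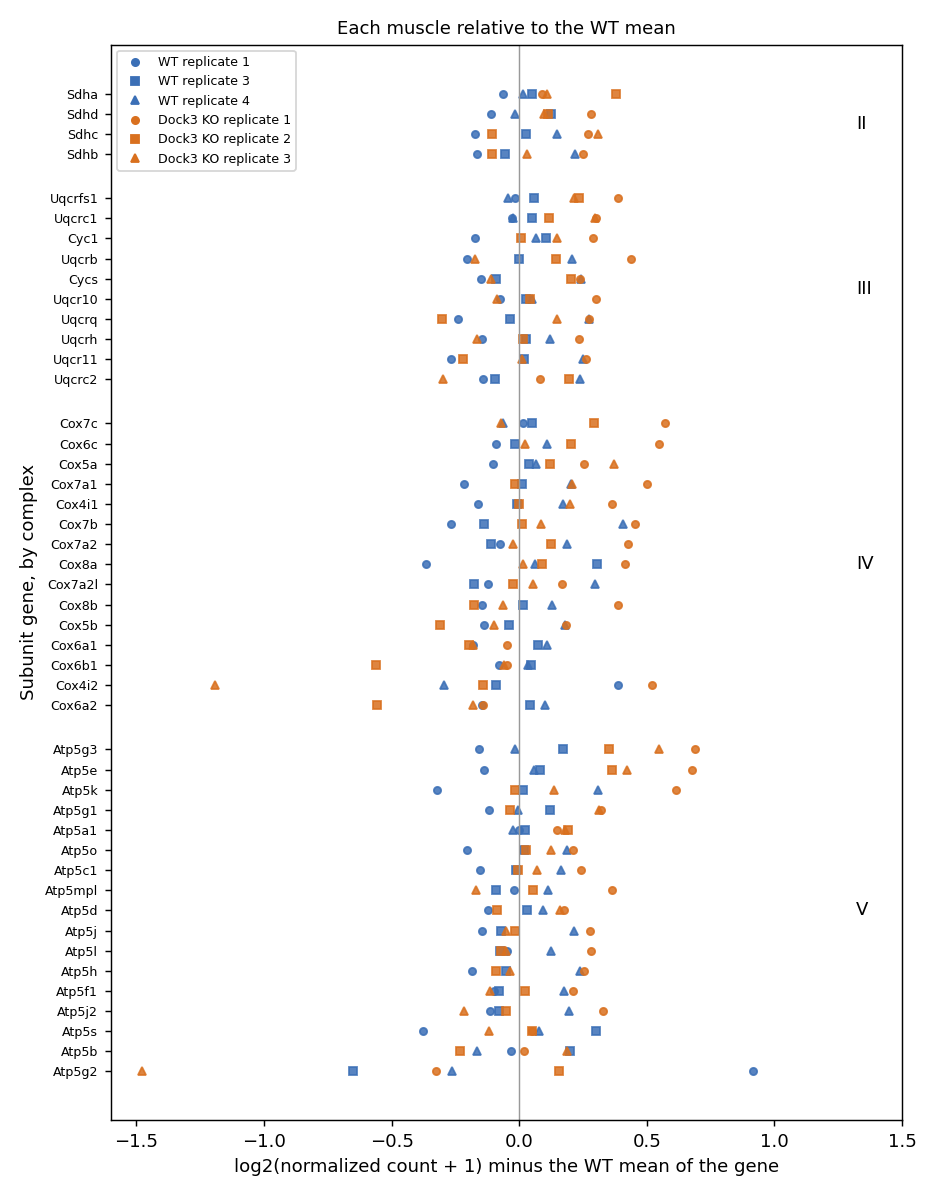
Each muscle's log2(normalized count + 1) minus the WT mean of the same gene, for the 46 tested members grouped by complex and ordered by difference. Orange circles (Dock3 KO replicate 1) lie at the right edge for 32 genes and blue circles (WT replicate 1) at the left edge for 25, while the outlying points of Atp5g2 and Cox4i2 belong to the 2 tested members with the widest intervals.

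A muscle of each genotype stood apart over many members. Dock3 KO replicate 1 held the highest value of 32 of the 46 tested members and WT replicate 1 the lowest of 25. The median deviation of the members from their WT mean was -0.14, 0.02 and 0.12 in WT replicates 1, 3 and 4 and 0.28, 0.01 and 0.02 in Dock3 KO replicates 1, 2 and 3 (log2 scale). Dock3 KO replicate 1 stood above the other 5 muscles in all 4 complexes, with medians of 0.26, 0.28, 0.39 and 0.25 in complexes II, III, IV and V, while replicates 2 and 3 lay between -0.04 and 0.10. Short transcripts over the whole table, the members included, had a like order. Over 759 protein-coding genes with a transcript under 1000 bases the same medians were -0.15, 0.03, 0.12, 0.21, -0.09 and -0.09, and over 12678 longer ones they all lay between -0.03 and 0.01. Of the tested members 27 have such short transcripts. The members with longer transcripts, 19 genes, gave -0.12, 0.02, 0.09, 0.24, 0.01 and 0.11. Red cell markers were also highest in Dock3 KO replicate 1, at 59930 normalized counts, while the other 5 samples lay between 17740 and 34660. The part of transcript length or blood RNA in the members' values was not tested. With log2 Gm42418 as a covariate, 25 of 46 members lay above 0 and the median was 0.04. The Gm42418 and Lars2 share was high only in Dock3 KO replicates 1 and 2, so this covariate cannot be fully separated from genotype.

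Complex V contained both ends of the range. Of 17 tested genes, 14 lay above 0, the median was 0.08, and 13 intervals lay within a 1.5-fold change. Atp5g3 (chr2:73908447-73911326, minus strand) stood at 4070, 5107 and 4486 normalized counts in WT and 7302, 5794 and 6621 in Dock3 KO. The knockout values all lay above the WT values. Its difference of 0.53 (95% interval 0.22 to 0.84), 1.44-fold, was the largest among the members, with an unadjusted p of 0.00358 and an adjusted p of 0.159 in limma. It had no near-identical copy, and without Dock3 KO replicate 1 the difference was 0.45.

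Atp5e, the epsilon subunit of the central stalk, was second and is named after its values were seen. It lies at chr2:174461072-174464105 on the minus strand and stood at 3650, 4245 and 4178 in WT and 6420, 5170 and 5376 in Dock3 KO. The groups did not overlap, the log2 difference was 0.49 (95% interval 0.19 to 0.78), 1.40-fold, and the adjusted p was 0.175 with limma. The catalytic Atp5b (chr10:128083273-128090391, plus strand) gave no such separation, with 31940, 37490 and 29170 in WT and 33090, 27820 and 37230 in Dock3 KO. Its log2 difference was -0.01 (95% interval -0.38 to 0.36). Atp5a1, the alpha subunit that alternates with beta in the catalytic head, was among the members whose groups did not overlap, with 28080, 28560 and 27650 in WT and 31160, 32090 and 31790 in Dock3 KO, a difference of 0.17 (95% interval -0.12 to 0.46).

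Atp5g2 gave the lowest log2 difference, -0.55, with an interval from -1.58 to 0.48. Single muscles decided its size, since leaving out Dock3 KO replicate 3 gave -0.08 and leaving out WT replicate 1 gave -0.09, where Cox6a2 was lower. Its own values were 378, 127 and 167 normalized counts in WT and 160, 223 and 71.1 in Dock3 KO, which was 2.59% to 12.3% of its sum with Gm10175. The sums were 3067, 3168 and 3505 in WT and 3813, 2995 and 2747 in Dock3 KO. They overlapped between genotypes, and their log2 difference was -0.04 (95% interval -0.36 to 0.29). How the signal divides between Atp5g2 and Gm10175 was not tested. A second entry named Atp5o lies across the first on the same strand of chromosome 16 and did not reach the minimum mean. The first, for a stalk subunit of complex V, stood at 5300 ± 714 in WT and 5736 ± 363 in Dock3 KO.

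**Figure D3:**
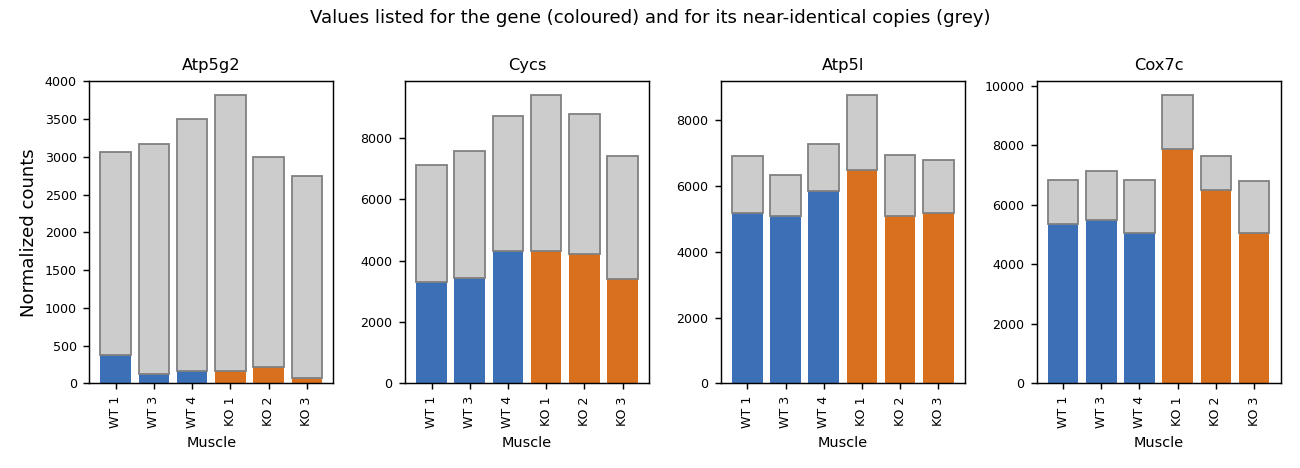
Normalized counts listed for Atp5g2, Cycs, Atp5l and Cox7c (coloured, blue in WT and orange in Dock3 KO) and for their near-identical copies (grey, stacked on top) in each of the 6 muscles. Nearly the whole Atp5g2 bar is grey in every muscle, and about the lower 45.3% to 49.6% of the Cycs bars is coloured.

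Atp5l, a subunit near the membrane base of complex V, shared its signal with 10 copies, chiefly Gm10221 on chromosome 5, whose transcript was 100% identical over 309 bases. It held 76.4% of the sum, and the log2 difference was 0.05 alone and 0.13 for the sum. For the other 12 members with copies, the gene itself held 99.87% or more of the sum over the 6 samples. With copies summed in the whole table, 0 members passed the threshold, 37 of 46 lay above 0, and the median was 0.11.

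**Figure D4:**
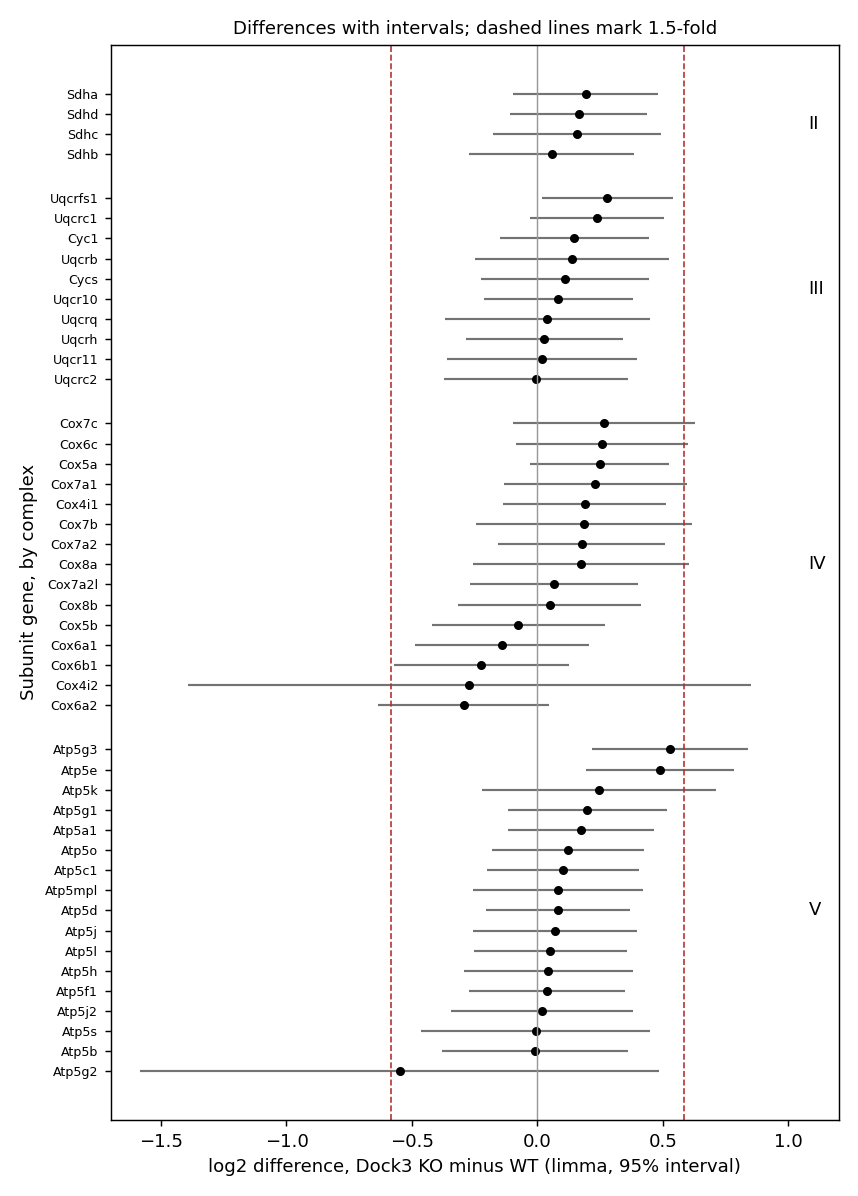
The log2 difference of each tested member, Dock3 KO minus WT, with its 95% interval from limma, grouped by complex. Dashed lines mark a 1.5-fold change in either direction. The intervals of 35 of 46 members lie between the dashed lines, and those of Atp5g3, Atp5e and Uqcrfs1 lie above 0.

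In 7 of 46 members the 2 genotypes did not overlap, every Dock3 KO value lying above every WT value: Sdha, Uqcrc1, Uqcrfs1, Cox5a, Atp5a1, Atp5e and Atp5g3. No member had every Dock3 KO value below every WT value. Over all genes tested, the groups did not overlap in 16.2%, and every Dock3 KO value lay above every WT value in 7.60%. Uqcrc1 is a core protein of complex III and Cox5a a matrix-side subunit of complex IV. Their log2 differences were 0.24 and 0.25, and neither passed the threshold (adjusted p 0.539 and 0.534 with limma).

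Ratios between isoforms within a muscle do not depend on the factor that scales a sample, so they were compared as a second measure. For 8 pairs, log2 ratios of normalized counts per kb were tested with a two-sided exact permutation test, which cannot give a p below 0.1 with 3 against 3 samples, and none was past 0.05 (smallest adjusted p over the 8 pairs 0.571). Atp5g1 to Atp5g3 was the pair whose genotypes did not overlap. Its log2 ratio was -1.82, -1.91 and -1.85 in WT and -2.22, -2.25 and -2.09 in Dock3 KO, a difference of -0.33 (exact permutation p = 0.1). Atp5g1 alone stood at 7532, 8887 and 8142 normalized counts in WT and 10190, 7964 and 10140 in Dock3 KO, a log2 difference of 0.20. With Gm10175 added to Atp5g2, an alternative added after seeing the data, the ratio of Atp5g2 to Atp5g3 did not overlap either, at -0.42, -0.70 and -0.37 in WT and -0.95, -0.97 and -1.29 in Dock3 KO. In each knockout muscle, then, Atp5g3 stood higher relative to Atp5g1, and to Atp5g2 with its copy, than in any WT muscle. Both ratios hold Atp5g3, the member with the largest difference in these same data. They are therefore not separate support for that difference or for each other. The ratio of Atp5g2 alone to Atp5g3 overlapped between genotypes (difference -1.08, exact permutation p = 0.3).

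Per kb of transcript, Cox6a2, Cox8b and Cox7a1, the muscle isoforms of complex IV, stood above their widely expressed paralogs in every muscle. Cox6a2 stood 40.3 to 42.2 times above Cox6a1 per kb in WT and 32.0 to 41.1 times above it in Dock3 KO, a difference in log2 ratio of -0.15 (exact permutation p = 0.3). Dock3 KO replicate 2 had the lowest ratio, without which the difference was -0.05, and the ratio of replicate 3 lay within the WT range. Cox6a1 itself stood at 304, 363 and 373 normalized counts in WT and 334, 301 and 305 in Dock3 KO. Cox8b stood 14.3 to 20.4 times above Cox8a in WT and 14.5 to 17.1 times above it in Dock3 KO (exact permutation p = 0.5). Cox8b had 5759, 6439 and 6969 normalized counts in WT and 8324, 5639 and 6095 in Dock3 KO, and Cox8a had 432, 689 and 582 in WT and 743, 593 and 564 in Dock3 KO.

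Cox7a1, the muscle isoform of another small subunit, and Cox7a2, its widely expressed paralog, were closer to each other, with ratios per kb of 1.37 to 1.64 in WT and 1.37 to 1.77 in Dock3 KO (exact permutation p = 0.8). Cox7a1 stood at 2879, 3372 and 3850 normalized counts in WT and 4735, 3306 and 3857 in Dock3 KO. Cox7a2 stood at 3525, 3442 and 4230 in WT and 4992, 4053 and 3656 in Dock3 KO. Cox7a2l, a related protein that joins complexes III and IV into supercomplexes, stood at 1671, 1609 and 2233 in WT and 2044, 1785 and 1885 in Dock3 KO, and its ratio to Cox7a2 overlapped between genotypes (difference -0.11, exact permutation p = 0.4).

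Cox4i1, the widely expressed isoform of the largest nuclear complex IV subunit, stood at 8033, 8930 and 10130 normalized counts in WT and 11580, 8978 and 10330 in Dock3 KO, a log2 difference of 0.19. Its paralog Cox4i2, known from lung and from low oxygen, stood at 32.0, 22.7 and 19.6 in WT and 35.2, 21.9 and 10.1 in Dock3 KO, and Dock3 KO replicate 3 was the lowest. The difference of their log2 ratio was -0.48 (exact permutation p = 0.5), and without Dock3 KO replicate 3 it was 0.01, without WT replicate 1 -0.20. Cox6b2, a testis isoform, reached 0.000388 to 0.00121 of the level of Cox6b1 per kb in WT and 0.000762 to 0.00214 in Dock3 KO (exact permutation p = 0.3).

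**Figure D5:**
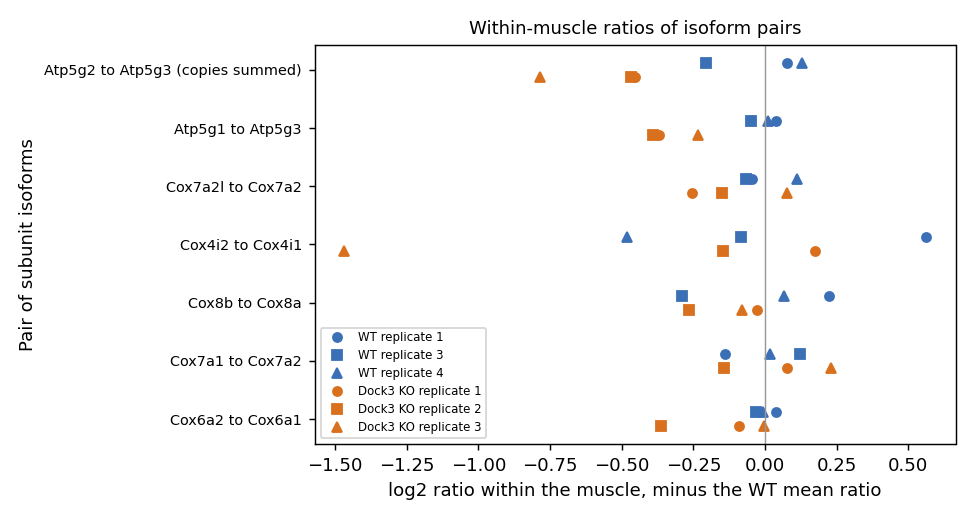
Within-muscle log2 ratio of isoform pairs, minus the WT mean ratio of the pair, for the 6 muscles. For Atp5g1 to Atp5g3, and for Atp5g2 with its copy to Atp5g3, all 3 orange points lie left of all blue points, and the other pairs drawn overlap. The pair Cox6b2 to Cox6b1 and Atp5g2 without its copy are not drawn.

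Other genes of the pathway were taken from lists chosen with earlier results of these data known. The complex I list went by name, taking symbols of Nduf followed by a, b, c, s or v and a digit, Ndufa4 and Ndufa4l2 included. Whether each gene encodes a complex I subunit was not checked. Of these 37 nuclear genes, 29 lay above 0 with a median of 0.10, and 1 passed the threshold. It was Ndufa12, an accessory subunit, at 1055, 1471 and 1539 normalized counts in WT and 3823, 2838 and 2902 in Dock3 KO (log2 difference 1.24, 95% interval 0.84 to 1.64, adjusted p = 0.00822 with limma), a difference beyond those of all 46 tested members of complexes II to V. Of 39 tested assembly factors of complexes II to V, 20 lay above 0 and none passed. The one with the smallest p was Lyrm7, which matures the Rieske protein for insertion into complex III, at 70.6, 22.5 and 53.8 in WT and 190, 214 and 74.8 in Dock3 KO (log2 difference 1.69, adjusted p = 0.198 with limma).

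The 6 subunits of complexes III to V in the mitochondrial genome had log2 differences from -0.14 for mt-Atp6 to 0.02 for mt-Co1, and none passed. They made up 11.1%, 9.73% and 11.7% of all normalized counts in WT and 8.26%, 7.58% and 10.7% in Dock3 KO, and the lowest 2 shares were those of the libraries with the high Gm42418 and Lars2 share. In the citrate cycle 12 of 13 genes lay above 0, with a median of 0.13, and none passed. The smallest p there belonged to Ogdh, a subunit of the 2-oxoglutarate dehydrogenase complex, at 11080, 9617 and 10000 in WT and 11140, 13060 and 14100 in Dock3 KO (log2 difference 0.32, adjusted p = 0.457 with limma). Of 16 genes of mitochondrial import and mass, 12 lay above 0 and none passed.

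Of 16 regulators of respiratory gene transcription, 7 lay above 0, the median was -0.02 and none passed. Ppargc1a, the coactivator that drives mitochondrial biogenesis, stood at 895, 883 and 950 normalized counts in WT and 830, 1117 and 1863 in Dock3 KO. Its log2 difference was 0.40 (95% interval -0.15 to 0.95) and the groups overlapped, with Dock3 KO replicate 3 apart from the other two. Perm1, a muscle partner of that pathway, stood at 2803, 2850 and 2325 in WT and 3302, 3012 and 4295 in Dock3 KO, without overlap (0.40, adjusted p = 0.394 with limma). Nrf1, which binds many respiratory gene promoters, stood at 204, 205 and 252 in WT and 323, 260 and 253 in Dock3 KO, a log2 difference of 0.34 (95% interval -0.06 to 0.74), and Esrra, an orphan nuclear receptor that works with Ppargc1a, differed by 0.35 (95% interval -0.08 to 0.78). Gabpa, the DNA-binding part of an ETS factor, differed by -0.03 (95% interval -0.40 to 0.34). Dock3 KO replicate 1, the highest for most subunit genes, had the lowest Ppargc1a value of the 6 muscles. It also had the highest Nrf1 and Esrra values, at 323 and 988. Its Gabpa and Perm1 values were neither the highest nor the lowest. What part these regulators have in the members' values was not tested.

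Promoter sequences were searched for motifs of these regulators. RefSeq promoter windows on GRCm38.p6, from 250 bases before to 50 after the start, were matched for 35 of the 49 member symbols. Both strands were searched for an NRF1 motif, an ETS motif bound by GABP (CCGGAAG), an ERR motif (TCAAGGTCA) and a YY1 motif (AAGATGGCG). Shares are of gene symbols, each counted once if any of its windows held the motif. The NRF1 motif was found for 28.6% of the members and for 5.19% of all 27025 symbols, and the ETS motif for 34.3% and 9.93%. The ERR motif was in the windows of 2 members, or 5.71%, against 0.466%, and the YY1 motif in those of 2, or 5.71%, against 1.64%. At least 1 of the 4 was found for 54.3% of the members and for 15.5% of all symbols. A match is a description of the letters and not a bound site.

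Parts of 4 promoters are shown with their motifs in capitals, on the strand of the gene: those of the 2 members with the largest differences, and those of Sdhd and Cox6a1, among the members that hold both an NRF1 and an ETS motif. They lie on the minus strand at chr2:73911327-73911393 (Atp5g3, ERR motif), chr2:174464182-174464218 (Atp5e, ETS motif), chr9:50603850-50603943 (Sdhd, NRF1 then ETS motif) and chr5:115348959-115349135 (Cox6a1, 2 NRF1 motifs, then an ETS motif). No part runs past the start. The windows of Atp5g3 and Sdhd each hold a further motif after the start that is not shown, NRF1 in Atp5g3 and ERR in Sdhd.
Atp5g3: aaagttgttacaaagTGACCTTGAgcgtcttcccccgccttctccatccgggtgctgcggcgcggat
Atp5e: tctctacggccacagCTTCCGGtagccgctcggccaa
Sdhd: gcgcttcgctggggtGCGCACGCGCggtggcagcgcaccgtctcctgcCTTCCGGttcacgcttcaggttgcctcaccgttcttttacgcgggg
Cox6a1: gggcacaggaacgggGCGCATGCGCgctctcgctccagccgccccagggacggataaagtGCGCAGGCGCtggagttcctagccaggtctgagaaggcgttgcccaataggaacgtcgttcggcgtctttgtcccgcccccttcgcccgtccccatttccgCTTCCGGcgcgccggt
The members with an NRF1 motif, 10 genes, had a median log2 difference of 0.14 (range -0.55 to 0.53), and the 23 tested members whose window held none had 0.08 (range -0.22 to 0.49). For the ETS motif the medians were 0.06 over 12 genes and 0.12 over 21. These medians are descriptions with no test. Sdhd and Cox6a1, with both motifs, differed by 0.16 and -0.14.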

How the data were processed

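Per the labels' protocols, ribosomal RNA was removed, libraries were stranded and reads were paired. The authors deposited 1 table of normalized counts, used here as a signal per gene, for 6 samples and 54393 genes. The submitters' processing notes name Trim Galore 0.4.5, FastQC, Salmon 0.12.0, DESeq2 1.22.1 and R 3.5.3, with builds mm10 and GRCm38, without saying what each did. How reads shared by several genes or strands were assigned is not given in the sources used here. Whole reads could not be recovered, so no count test was run and the approximate depths carry no counting interval.

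Genes were matched to GENCODE M21. Values were converted to log2(normalized count + 1), genes with a mean of at least 10 were kept, and genotypes (3 against 3) were compared with limma 3.58.1 in R 4.3.3 (eBayes with trend, no covariates, Benjamini-Hochberg over 16031 genes), after a check on simulated data. The log2 scale with this pseudocount understates changes of low genes. Levels per kb used the longest coding transcript with the best APPRIS tag. Near-identical copies were sought with blastn 2.17.0 (at least 95% identity over 50% of the shorter transcript and 100 bases). Genes named with values are the extremes and the highest member of each complex, the isoform pairs, members whose copies matter, and others marked as chosen later. The members and lists were chosen with earlier results of these data known. The 1.5-fold and 2-fold limits, the counts of non-overlapping groups and the length classes were chosen after seeing the data. Python 3.11.15 with scipy 1.17.1, numpy 2.4.6, pandas 2.3.3 and matplotlib 3.10.9 was used. Alternatives covered pseudocount, filter, scaling, variance model, copies, the replicate block and left-out samples.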

Additional observations from a re-analysis of the deposited data

How the results depend on the processing

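No member passed the threshold under any of 21 other settings, with the smallest adjusted p of a member between 0.145 and 0.511. Of 440 values of the named members under these settings, 408 kept their direction and 32 did not. In this count the values rescaled to the same total were taken relative to the median of all genes, which was -0.28 there. Without that step 3 of 46 members lay above 0 in that setting, so more directions would turn. With quantile normalization the log2 difference was -0.0341 for Cox8b, -0.0268 for Sdhb and -0.0531 for Uqcrh, and the members' median was 0.03 with 26 of 46 above 0. Median-of-ratios scaling over protein-coding genes gave 0.0003 for Atp5b and 0.0031 for Uqcrc2, and array weights -0.0132 for Cox8b and -0.0285 for Uqcrh. The covariate log2 Gm42418 cannot be fully separated from genotype here. With it the values were 0.23 for Atp5b, -0.0393 for Cox7a2, -0.103 for Cox7c, -0.0547 for Cox8b and -0.17 for Uqcrh. Without Dock3 KO replicates 1 and 2, a setting chosen after seeing the data that leaves 1 knockout muscle, assumed to vary like the WT muscles, they were 0.188, -0.0234, -0.0705, -0.0637 and -0.167, with 25 of 46 members above 0 and a median of 0.02. The cause of these turns was not tested.

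With 1 muscle left out in turn, the log2 difference ran from -0.0103 to 0.3257 for Cox8a, from -0.1197 to 0.1612 for Cox8b, from -0.0377 to 0.1670 for Sdhb, from -0.0756 to 0.1254 for Uqcrh, from -0.1078 to 0.1024 for Atp5b, from -0.0224 to 0.2138 for Cox7a2l, from -0.1076 to 0.1389 for Uqcrc2, from -0.6669 to 0.1887 for Cox4i2 and, with no turn, from -0.9020 to -0.0840 for Atp5g2. The members' median ran from 0.02 (without Dock3 KO replicate 1) to 0.18, and the count above 0 from 24 to 40.

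The count of genes called over the whole table was 165, and 221 with no filter on low values, 214 with array weights, 180 rescaled to the same total, 176 with a robust prior variance, 57 with the covariate, 104 without a trend in the prior variance, 104 over protein-coding genes only, 56 without Dock3 KO replicates 1 and 2, and 100 to 159 with 1 muscle left out. Genotypes share the replicate numbers 1 and 3, and the labels do not say whether these pair the muscles. Same-numbered muscles did not deviate together (correlations over genes 0.0649 and 0.00663). With 3 muscles per genotype these correlations cannot decide whether the numbers pair them. The replicate block, with 1 residual degree of freedom, left 0 members and 127 genes past the threshold, a median of 0.23 over the members, and 0.0202 for Atp5b and 0.0108 for Uqcrc2. Depth is known only approximately, and precision rests on 3 muscles per genotype.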
